A study of Homo sapiens with 5 samples.

Results

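The genes described here are the ID genes ID1, ID2 and ID3 and 7 genes of the BMP-SMAD pathway: the ligand BMP4, the receptors BMPR1A and BMPR2, the signal-carrying SMAD1 and SMAD5, and the inhibitory SMAD6 and SMAD7. They were chosen by gene symbol, and each of the 10 matched 1 of the 60623 genes in the table. All 10 passed the expression filter and were among the 13833 genes tested. RNA-seq was done on HCT116, an established human colorectal carcinoma cell line, in 3 control libraries (replicates 1, 2 and 3) and 2 libraries of LT4-treated cells (replicates 1 and 3). The compound is called 4-acetylantrocamol LT3 in the series title and LT4 in the design text and sample titles. The labels give no dose, duration or vehicle. They also do not say whether replicates were grown separately, and the spread behind each p-value may therefore be technical. The column headers place LT4 replicates 1 and 3 in separate groups, so it is not stated that they received the same treatment.

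Bone morphogenetic proteins (BMPs) are secreted ligands that bring type I and type II receptor kinases together at the cell surface. The active type I receptor phosphorylates SMAD1, SMAD5 or SMAD9, which enter the nucleus with SMAD4 and switch on target genes, among them the ID genes and the feedback inhibitors SMAD6 and SMAD7. ID proteins have a helix-loop-helix domain but no DNA-binding region. They pair with E proteins such as TCF3 and TCF12 and keep them off DNA, which favours proliferation over differentiation in many cell types. In the colon, BMP signalling is strongest towards the crypt surface, where it opposes stem-cell renewal, and inherited loss of BMPR1A or SMAD4 causes juvenile polyposis. HCT116 cells are mismatch-repair deficient and are known to carry frameshift mutations in TGFBR2, the type II receptor for TGF-beta.

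RefSeq start-site sequences (GRCh38.p14) were found for all 10 genes, and 4 are shown. ID3 and SMAD5 had the largest fitted differences with LT4 among the 10, ID1 is the ID gene set beside ID3, and the window of the feedback inhibitor SMAD6 holds a SMAD motif. Each is the 250 bases before the RefSeq start, in the direction of transcription. The window of ID3 is chr1:23559502-23559751 on the minus strand. Those of ID1 (chr20:31605039-31605288), SMAD5 (chr5:136132595-136132844) and SMAD6 (chr15:66701986-66702235) are on the plus strand. The gene positions given further below are from GENCODE 29, whose starts can differ. By those positions the ID3 window lies inside the gene, and the windows of ID1 and SMAD6 run a few bases into theirs. Capitals mark matches to any of 4 motifs searched on both strands.
ID3: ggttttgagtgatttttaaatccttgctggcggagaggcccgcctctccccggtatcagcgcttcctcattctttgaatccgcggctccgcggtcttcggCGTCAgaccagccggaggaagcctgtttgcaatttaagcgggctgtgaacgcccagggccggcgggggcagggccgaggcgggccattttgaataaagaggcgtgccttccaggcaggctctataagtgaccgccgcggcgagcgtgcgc
ID1: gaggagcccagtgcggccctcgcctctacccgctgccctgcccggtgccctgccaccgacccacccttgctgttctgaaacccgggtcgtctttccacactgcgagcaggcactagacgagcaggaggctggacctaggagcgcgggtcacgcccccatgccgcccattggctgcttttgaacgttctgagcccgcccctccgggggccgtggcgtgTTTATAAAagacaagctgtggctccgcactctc
SMAD5: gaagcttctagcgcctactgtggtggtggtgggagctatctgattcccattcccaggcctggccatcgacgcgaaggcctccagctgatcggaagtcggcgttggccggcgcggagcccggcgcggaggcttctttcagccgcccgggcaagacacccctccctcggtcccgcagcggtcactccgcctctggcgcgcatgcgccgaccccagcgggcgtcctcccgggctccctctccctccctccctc
SMAD6: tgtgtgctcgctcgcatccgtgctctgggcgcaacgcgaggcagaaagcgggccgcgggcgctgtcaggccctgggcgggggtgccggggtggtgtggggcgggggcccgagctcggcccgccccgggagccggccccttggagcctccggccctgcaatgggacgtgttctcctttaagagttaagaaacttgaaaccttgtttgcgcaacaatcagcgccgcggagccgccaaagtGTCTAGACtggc
The motifs were the palindromic SMAD-binding element GTCTAGAC, the GC-rich SMAD element GGCGCC, the core of the cAMP-response element TGACG, and the TATA box TATAAA. GTCTAGAC began 12 bases before the RefSeq start of SMAD6. It occurred in 0.182% of 35116 promoter windows of the same length, and in no window of the other 9 genes. ID1 held the TATA motif as overlapping matches on both strands (10.7% of all windows hold it), and ID3 held TGACG as its reverse complement (21.2%). GGCGCC, found in 16.4% of all windows, was absent from these 4 windows and present in windows of BMP4, BMPR2 and SMAD1. The SMAD5 window held none of the 4 motifs. These matches describe the letters of a short window and not binding.

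Levels of the 10 genes, in TPM as the authors scaled them per transcript length, spanned a wide range in the controls. ID1 was highest at 789 ± 79.2 TPM (SD, n = 3), ranking 163 of 13833 tested genes, followed by ID3 at 445 ± 28.1 TPM and BMP4 at 240 ± 33.1 TPM. ID2 stood at 35.9 ± 2.69 TPM. The control ranges of these 4 genes did not touch each other or those of the remaining genes. SMAD6 (4.36 ± 0.198 TPM), SMAD5 (3.80 ± 0.608 TPM) and SMAD1 (3.28 ± 0.314 TPM) came next, and neighbours among them overlapped. SMAD7 (2.60 ± 0.224 TPM), BMPR1A (2.20 ± 0.279 TPM) and BMPR2 (1.43 ± 0.428 TPM, rank 11543) were lowest, and neighbours among these also overlapped.

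**Figure D1:**
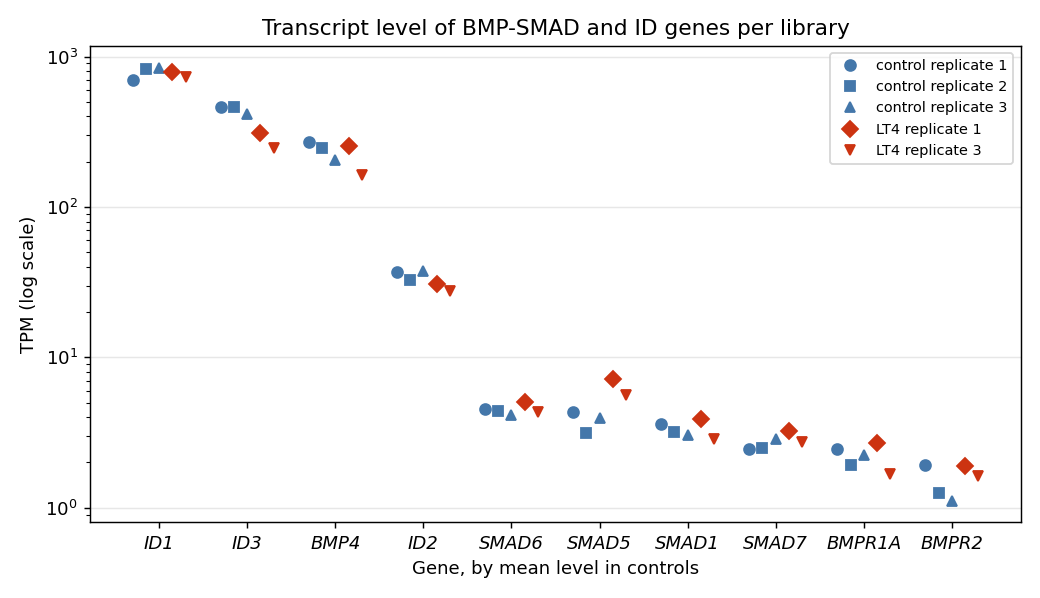
TPM on a log axis for each gene, with each point 1 library: blue for controls and red for LT4. ID3 is the gene of the upper 4 whose LT4 points (245 and 309 TPM) sit furthest below its controls (412 to 462 TPM), and SMAD5 has its LT4 points (5.66 and 7.17 TPM) above its controls (3.14 to 4.33 TPM).

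The libraries differed in depth, with total counts of 11653484 to 12296916 in controls, 9840467 in LT4 replicate 1 and 2281912 in LT4 replicate 3. Mitochondrial genes took 9.92% of the counts of LT4 replicate 3 and 5.73% to 6.64% of the others. Epithelial markers matched the labelled cell type in part: KRT8, KRT18, KRT19, EPCAM, CDH1 and CDX2 had 60 or more counts in every library, but the brush-border gene VIL1 had 1 to 4. Leukocyte markers PTPRC and CD3E and the fibroblast marker DCN were at 0 in all libraries. Summed fibroblast markers, mostly COL1A1, were 16.1 to 17.6 CPM (counts scaled to library size, with TMM scaling between libraries) in controls and 9.57 to 14.4 CPM with LT4, and their part in the results was not tested.

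LT4 against control was tested with edgeR's quasi-likelihood test over all 13833 genes with Benjamini-Hochberg adjustment. At an adjusted p of 0.05, 0 of the 10 genes passed, where 19 genes (0.137%) passed over the whole table. At an unadjusted p under 0.05, there were 2 of the 10, against 13.9% of all genes tested. These were ID3, lower (5.28% of all genes), and SMAD5, higher (8.58%). DESeq2 called 1 of the 10, ID3, and 1.06% of all genes with an adjusted p. LT4 and control libraries did not overlap in CPM for 5 of the 10, against 33.9% of all genes, so that share is not far above the background. Those 5 were ID2 and ID3 below the controls (16.5% of all genes) and SMAD5, SMAD6 and SMAD7 above them (17.3%). The median log2 fold change of the 10 was 0.03, beside -0.0032 over all genes tested. In bulk RNA, a smaller share of expressing cells and less RNA per cell cannot be told apart.

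**Figure D2:**
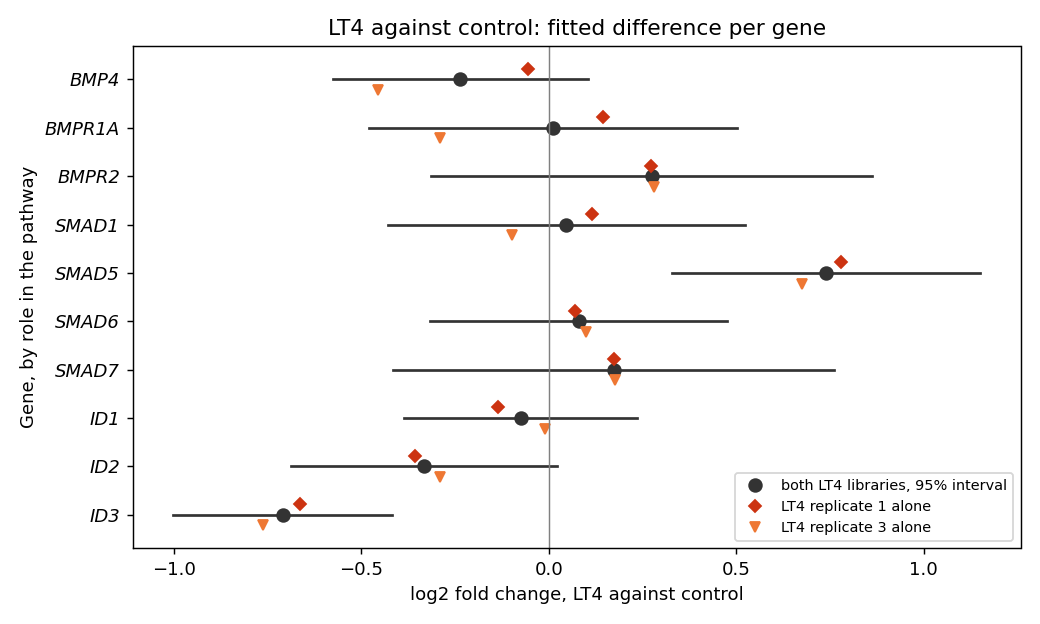
Log2 fold change of LT4 against control for each gene, with black points and lines for the fit to all 5 libraries and its 95% interval, and coloured points for each LT4 library alone against the controls. The intervals of ID3 (-1.001 to -0.42) and SMAD5 (0.33 to 1.15) lie away from 0, and those of the other 8 genes include 0.

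BMP4, the ligand (ENSG00000125378, GRCh38 chromosome 14, 53949736 to 53958761, minus strand, protein-coding), had 307, 296 and 246 CPM in controls 1, 2 and 3, and 272 and 207 CPM in LT4 replicates 1 and 3. The first of these lay among the controls and the other below them. EdgeR gave a log2 fold change of -0.24 with an SE of 0.16 and adjusted p = 0.531, and the difference moved with the library: -0.06 with LT4 replicate 1 alone and -0.45 (adjusted p = 0.0895) with LT4 replicate 3 alone.

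The receptors were scarce. BMPR1A, a type I receptor (ENSG00000107779, chromosome 10, 86756601 to 86932838), had 10.4, 8.41 and 9.94 CPM in controls and 10.6 and 7.83 CPM with LT4. Those LT4 values lay just above and just below the range of the controls. The log2 fold change was 0.01 (95% interval -0.48 to 0.50, adjusted p = 0.99, edgeR). In LT4 replicate 3 the value rested on 18 counts, which allow 4.64 to 12.4 CPM (exact Poisson 95% interval, covering counting error only). BMPR2, a type II receptor for BMPs (ENSG00000204217, chromosome 2, 202376936 to 202567751), had 8.85, 6.07 and 5.44 CPM in controls and 8.21 and 8.27 CPM with LT4. Control 1 was above both LT4 libraries and the other controls below them. Its log2 fold change was 0.27 (95% interval -0.31 to 0.86, adjusted p = 0.689, edgeR), so a change of up to 1.82-fold upward or to 0.804-fold downward was not resolved at this depth.

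SMAD5 and SMAD1 are close paralogs that carry the same BMP signal, and their fitted differences were 0.74 and 0.05 on the log2 scale. SMAD5 (ENSG00000113658, chromosome 5, 136132845 to 136188747) had 178, 126 and 160 counts in controls 1, 2 and 3, and 227 and 48 in LT4 replicates 1 and 3, or 14.5, 10.9 and 13.8 CPM against 22.5 and 20.9 CPM. Both LT4 libraries were above every control. The log2 fold change was 0.74 (SE 0.19, 95% interval 0.33 to 1.15), a 1.67-fold higher mean, with adjusted p = 0.123 (edgeR). It passed with LT4 replicate 1 alone (0.78, adjusted p = 0.0231, where 3.7% of all genes passed) and missed the threshold with only LT4 replicate 3 kept (0.68, adjusted p = 0.166, where 4.12% passed). In the authors' deposited table SMAD5 had log2 fold changes of 0.79 (adjusted p = 0.00475) for LT4 replicate 1 and 0.65 (adjusted p = 0.181) for LT4 replicate 3, where 6.09% and 4.84% of genes passed. An annotated antisense gene, SMAD5-AS1, shares 610 exon bases with it but had at most 1 count in any library.

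SMAD1 (ENSG00000170365, chromosome 4, 145481194 to 145558079) had 9.50, 8.67 and 8.38 CPM in controls and 9.60 and 8.27 CPM with LT4. The LT4 values bracketed the controls, with a log2 fold change of 0.05 (95% interval -0.43 to 0.52, adjusted p = 0.95, edgeR). The ratio of SMAD5 to SMAD1 within a library does not depend on how libraries are scaled. In TPM it was 1.19, 0.989 and 1.29 in controls and 1.84 and 1.98 with LT4. The means were 1.16 ± 0.156 (SD, n = 3) and 1.91 ± 0.103 (SD, n = 2), with p = 0.1 in a two-sided exact permutation test, the smallest p that 10 splits allow (0.25 adjusted over 5 ratios). This design cannot reach 0.05, and the ratio is not separate from the SMAD5 values above. The receptor ratio, BMPR2 to BMPR1A, was 0.645 ± 0.139 in controls (SD, n = 3) and 0.835 ± 0.181 with LT4 (SD, n = 2), with p = 0.4 in the exact test (adjusted 0.5).

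**Figure D3:**
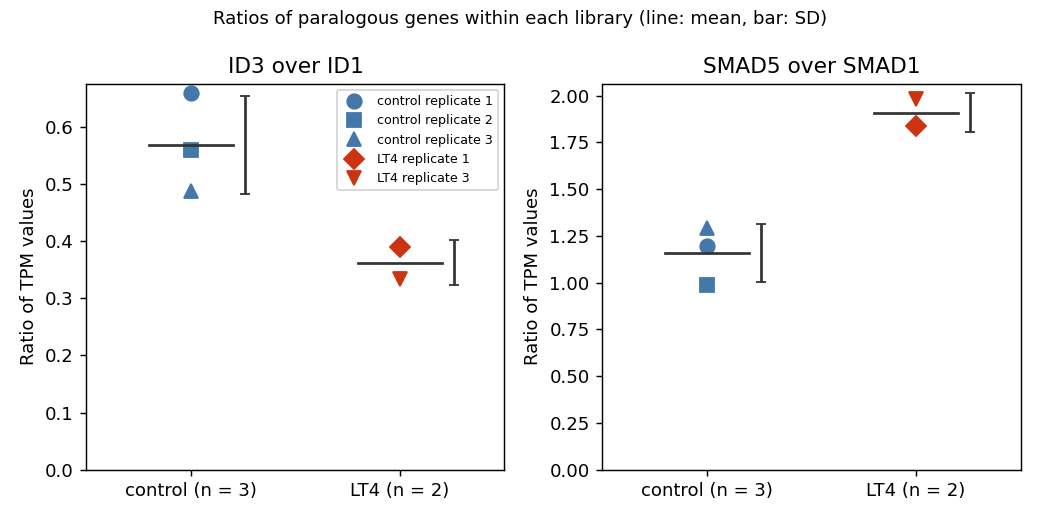
Ratio of TPM values within each library for ID3 over ID1 (left) and SMAD5 over SMAD1 (right), with points for libraries, lines for means and bars for SD. LT4 libraries lie below all controls on the left (0.334 and 0.390 against 0.488 to 0.659) and above all controls on the right (1.84 and 1.98 against 0.989 to 1.29).

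The feedback inhibitors SMAD6 and SMAD7 had fitted differences near 0 with wide intervals. SMAD6, which blocks BMP receptors and SMAD1 (ENSG00000137834, chromosome 15, 66702228 to 66782848), had 14.3, 14.6 and 13.8 CPM in controls and 14.9 and 15.2 CPM with LT4. Its log2 fold change was 0.08 (95% interval -0.32 to 0.48, adjusted p = 0.893, edgeR). SMAD7, which acts on both BMP and TGF-beta receptors (ENSG00000101665, chromosome 18, 48919853 to 48952052), had 56, 56 and 65 counts in controls and 57 and 13 with LT4. That is 4.55, 4.86 and 5.62 CPM against 5.64 and 5.66 CPM, with a log2 fold change of 0.17 (95% interval -0.41 to 0.76, adjusted p = 0.821, edgeR). Both LT4 libraries were above all controls for both genes in CPM, but by narrow margins, and in TPM the groups overlapped for each. The ratio of SMAD7 to SMAD6 in TPM was 0.599 ± 0.0800 in controls (SD, n = 3) and 0.637 ± 0.00728 with LT4 (SD, n = 2), with p = 0.6 in the exact permutation test (adjusted 0.6). The 13 counts of SMAD7 in LT4 replicate 3 allow 3.01 to 9.67 CPM.

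The 3 ID genes had unequal values with LT4. ID3 (ENSG00000117318, chromosome 1, 23557918 to 23559794, minus strand) had 3130, 3070 and 2785 counts in controls and 1618 and 344 with LT4, or 254, 266 and 241 CPM against 160 and 150 CPM. Both LT4 libraries were far below the lowest control, and the group means were 254 ± 12.8 (SD, n = 3) and 155 ± 7.36 CPM (SD, n = 2). The log2 fold change of -0.71 (SE 0.14, 95% interval -1.001 to -0.42) corresponds to 0.612-fold and had an adjusted p of 0.0657 by edgeR, which missed the threshold. It was -0.66 (adjusted p = 0.0045) with LT4 replicate 1 alone and -0.76 (adjusted p = 0.00311) with LT4 replicate 3 alone, where 3.7% and 4.12% of all genes passed. DESeq2 gave -0.71 with adjusted p = 0.000837, where 1.06% of genes with an adjusted p passed. In the authors' deposited table ID3 had log2 fold changes of -0.65 (adjusted p = 0.0108) for LT4 replicate 1 and -0.78 (adjusted p = 0.00305) for LT4 replicate 3. Those comparisons share the same controls. In the edgeR fits with 1 LT4 library, here and for SMAD5, the spread comes from the controls alone.

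ID1 (ENSG00000125968, chromosome 20, 31605283 to 31606515), the most abundant of the 3, had 318, 392 and 406 CPM in controls and 338 and 369 CPM with LT4. The LT4 values lay inside the control range, and the log2 fold change was -0.07 (95% interval -0.38 to 0.23, adjusted p = 0.863, edgeR). ID2 (ENSG00000115738, chromosome 2, 8678845 to 8684453) had 30.4, 28.02 and 32.6 CPM in controls and 23.6 and 24.8 CPM with LT4. Both LT4 libraries were below every control, with a log2 fold change of -0.33 (95% interval -0.69 to 0.02, adjusted p = 0.391, edgeR). The ratio of ID3 to ID1 in TPM was 0.659, 0.560 and 0.488 in controls and 0.390 and 0.334 with LT4 (two-sided exact permutation test, p = 0.1, the smallest possible, and 0.25 adjusted over the 5 ratios). The ratio of ID2 to ID1 was 0.0459 ± 0.00679 in controls (SD, n = 3) and 0.0382 ± 0.00107 with LT4 (SD, n = 2), with exact p = 0.2 (adjusted 0.333). ID1 made up 58.4% to 65.2% of the summed ID1, ID2 and ID3 TPM in controls and 70.0% and 72.9% with LT4. ID3 made up 31.9% to 38.5% and then 27.3% and 24.4%, while ID2 stayed between 2.49% and 3.11% in every library. The sum itself was lower with LT4, at 1131 and 1006 TPM against 1196 to 1319 TPM in controls. A higher or steady share is therefore no measure of a gene's own level. ID4, the remaining ID gene, had 1 to 5 counts per library and was not tested.

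The genes whose profile over the 5 libraries was most like that of ID3 were BZW2, FAM117A and DLX4. Likeness was the root-mean-square difference of log2 CPM after centring each gene, over the 10494 genes whose mean log2 CPM reached 2. It was 0.03, 0.04 and 0.05 log2 units, beside a median of 0.39 over those genes. These genes were picked as the smallest of the 10494 values, so their distance from the median is no separate result. Their fold changes lie near that of ID3 for the same reason. BZW2 had 127, 128 and 120 CPM in controls and 81.3 and 75.7 CPM with LT4 (log2 fold change -0.66, adjusted p = 0.0949, edgeR). DLX4, a homeobox gene, had a log2 fold change of -0.76 (adjusted p = 0.134, edgeR) and FAM117A one of -0.76 (adjusted p = 0.137). In LT4 replicate 3 DLX4 and FAM117A stood at 8.27 and 8.70 CPM. BMPR2, also at 8.27 CPM there, rested on 19 counts, which allow 4.98 to 12.9 CPM. Counting error at this depth is wider than 0.05 log2 units, so the place of these 2 genes among the nearest is uncertain.

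A wider list held 69 further genes of BMP and TGF-beta signalling, of which 47 were tested. By edgeR 0 passed over all genes and 8 reached an unadjusted p under 0.05 (5 higher and 3 lower), beside 13.9% of all genes (8.58% higher and 5.28% lower). DESeq2 called 1, the ligand gene GDF15, where it called 1.06% of all genes with an adjusted p. It gave no adjusted p to some of the 47, SKIL and CHRD among them, so these were neither called nor missed. The median log2 fold change over the 47 genes was -0.0047. For 6 of the genes the LT4 libraries exceeded every control, and for 9 they fell short of every control, against 17.3% and 16.5% of all genes. Transcripts at 0 counts in all 5 libraries included BMP5, GDF7, the secreted BMP antagonists GREM1 and CHRDL2, and the E protein TCF4. A gene at 0 could still be present at up to 0.244 CPM in the deepest library or 1.31 CPM in LT4 replicate 3 (3 counts of the total).

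**Figure D4:**
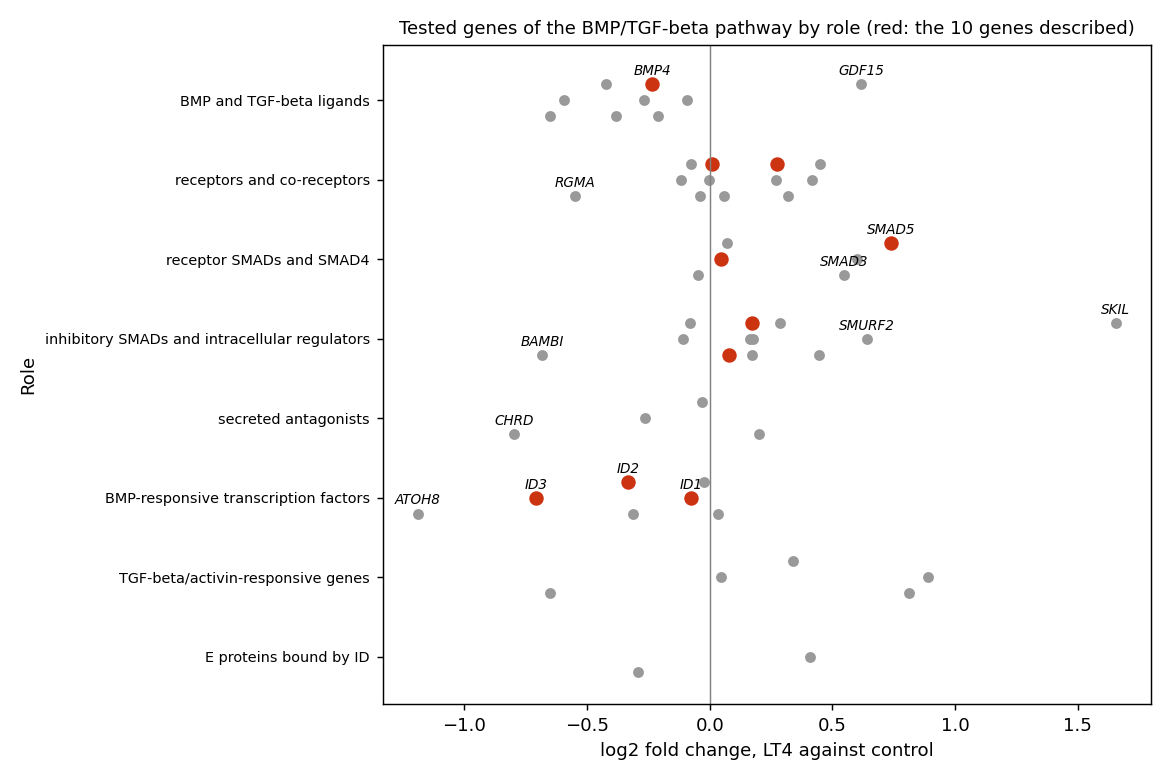
Log2 fold change of LT4 against control for the 57 tested genes of the whole list, with 1 row of points per role. Red points are the 10 genes described and grey points the others. The BMP-responsive transcription factors lie at or left of 0 with MSX1 (0.03) the furthest right, and SKIL (1.66) is the rightmost point of all.

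Among other BMP-responsive transcription factors, ATOH8, a helix-loop-helix factor, had 7.07, 10.2 and 9.07 CPM in controls and 2.97 and 6.09 CPM with LT4 (log2 fold change -1.19, SE 0.33, adjusted p = 0.143, edgeR). MSX2, a homeobox factor, had -0.31 (adjusted p = 0.422). Including the ID genes, 6 of the 7 tested genes of this role had negative values, beside 6968 of 13833 over all genes. DLX2 (-0.02) and ID1 (-0.07) among these were close to 0. Of the 7, 0 passed, and their median was -0.31. ID3 is itself 1 of the 7, so this count is not separate from the values above.

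Cytoplasmic and nuclear regulators of SMADs held the largest value of the list. SKIL, a SMAD corepressor, had 17, 16 and 18 counts in controls and 45 and 11 with LT4, or 1.38, 1.39 and 1.56 CPM against 4.45 and 4.79 CPM. Both LT4 libraries were above every control, and edgeR gave 1.66 on the log2 scale, with an SE of 0.35 and adjusted p = 0.0921. SMURF2, a ubiquitin ligase that targets SMADs and their receptors, had 41.5 ± 4.01 CPM (SD, n = 3) in controls and 65.3 ± 7.31 CPM (SD, n = 2) with LT4 (log2 fold change 0.64, adjusted p = 0.109, edgeR). In the role that holds SMAD6, SMAD7 and these regulators, 9 of 12 tested genes had positive values and 0 passed. Over all genes 6865 of 13833 had positive values. With LT4 replicate 3 alone SKI (-0.32) and SMURF1 (-0.07) turned negative, and the other tested genes of this role kept their sign.

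Of the other signal-carrying SMADs, SMAD3, which carries TGF-beta and activin signals, had 73.6 ± 8.42 CPM in controls (SD, n = 3) and 107 ± 3.06 CPM with LT4 (SD, n = 2). A log2 difference of 0.55 had an adjusted p of 0.135 by edgeR and came near that of SMAD5. SMAD9, the other BMP-responsive SMAD, was almost absent, with 4 to 11 counts in controls and 11 and 0 with LT4. Among TGF-beta-responsive genes, LTBP2 had a log2 fold change of 0.89 (adjusted p = 0.393, edgeR).

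Among ligands, GDF15, a distant TGF-beta family member secreted by stressed cells, had 355 ± 37.3 CPM in controls (SD, n = 3) and 545 ± 24.8 CPM with LT4 (SD, n = 2). The fitted log2 difference was 0.62 (adjusted p = 0.0962 by edgeR and 0.00998 by DESeq2). GDF11 had -0.42 (adjusted p = 0.318, edgeR). Of the 9 tested ligand genes 8, BMP4 included, had negative values with 0 past the threshold, beside 6968 of 13833 genes negative over all. With LT4 replicate 1 alone TGFB1 (0.21) and BMP8A (0.11) turned positive, and the other ligand genes kept their sign. Receptors ACVR2B (0.45, adjusted p = 0.373, edgeR) and RGMA (-0.55, adjusted p = 0.422), a BMP co-receptor, had the smallest p among the other receptors. RGMA had 10.1 to 12.6 CPM in controls, and 9.70 and 3.48 CPM in LT4 replicates 1 and 3, with only the shallowest library far below the controls.

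The secreted antagonists CHRD (chordin; -0.80, adjusted p = 0.393, edgeR) and NBL1 (-0.26, adjusted p = 0.406) did not pass, and 4 of the 11 genes of that role were tested. CHRD rested on 25 and 2 counts in LT4 replicates 1 and 3, and its value was -0.52 with the first alone and -2.01 with the second alone. The E proteins that ID proteins bind had opposite signs: TCF12 had 0.41 (adjusted p = 0.387, edgeR) and TCF3 had -0.29 (adjusted p = 0.441). TCF3 was abundant, at 214 ± 20.1 CPM in controls (SD, n = 3) and 174 ± 40 CPM with LT4 (SD, n = 2). Each sign came from 1 LT4 library, with the other inside the control range. TCF3 had 199 to 237 CPM in controls, and 202 and 145 CPM in LT4 replicates 1 and 3. TCF12 had 12.1 to 15.2 CPM in controls, and 20.1 and 14.8 CPM in LT4 replicates 1 and 3.

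Transcript length moved with some of these values. The exon lengths of ID1, ID3 and ID2 were 1233, 1797 and 2205 bases, against 9040 for SMAD5, 11412 for BMPR1A and 11900 for BMPR2. After removal of a per-library trend on gene length, ID3 had -0.58 (adjusted p = 0.131, edgeR) and SMAD5 0.59 (adjusted p = 0.204), both with the same sign as before, while BMPR2 moved from 0.27 to 0.06 and ID1 changed sign to 0.05.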

How the data were processed

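Expression was measured by RNA-seq in 5 HCT116 libraries, grouped by their titles. Per the labels' protocols, libraries came from a TruSeq stranded mRNA kit. The submitters' processing notes name GRCh38 with HISAT2 2.1.0, fastp 0.20.0, Subread 2.0.1, featureCounts and SAMtools 1.9. Neither the annotation nor the strand setting of the counting is given in the sources used here. Per the file headers, the authors deposited raw counts and TPM per gene, the latter summing to 1000000 per library. The same table holds the authors' log2 fold changes and p-values for each LT4 library, whose test is not named. The headers also name a further LT4 library, which matches no sample given; its 2 value columns and 3 comparison columns were not analysed here.

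The counts were tested with edgeR 4.0.16 (R 4.3.3): expression filter, TMM scaling, robust quasi-likelihood F test, group as the only term, Benjamini-Hochberg adjustment over 13833 genes, threshold 0.05. Standard errors were derived from the F statistic and the log2 fold change, and 95% intervals from the t distribution. Alternatives used limma 3.58.1 and DESeq2 1.42.0. Tables and plots used Python 3.11.15, pandas 2.3.3 and matplotlib 3.10.9. Positions and exon lengths came from GENCODE 29 (GRCh38), and lengths were known for 99.6% of tested genes. The method was also run on counts simulated from the control means and the real library sizes, and the outcome is not reported here. That simulation gave every gene the same dispersion and put no difference other than depth between the LT4 libraries. Depth ranged from 2281912 to 12296916 counts, and the exact Poisson intervals and floors cover counting error only.

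The genes, lists and tests were chosen with earlier results of these data known. The genes named were the 10 described, any listed gene below an adjusted p of 0.05, the 2 of smallest p in each of 8 roles, listed genes at 0 counts, and the 3 profiles nearest to the gene with the smallest p. Some genes that this rule names are not reported here. ID4, MSX1, DLX2, SKI, SMURF1, TGFB1, BMP8A and the cell markers are named beside these. The motifs were chosen after the sequences were seen. Same-numbered libraries are not stated to be paired, so the test had no replicate term.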

Additional observations from a re-analysis of the deposited data

How the results depend on the processing

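The 10 genes were refitted under 14 alternatives. BMP4, BMPR2, SMAD5, SMAD7, ID2 and ID3 kept their direction in all of them. ID3 ranged from -0.76 to -0.58 and SMAD5 from 0.59 to 0.82. ID3 passed the threshold in 5 of the 14: no count filter, DESeq2, the replicate block and each LT4 library alone. SMAD5 passed in 2: no count filter and LT4 replicate 1 alone. All of these settings called more genes over the whole table than the main test did (19). ID3 missed the threshold wherever 35 or fewer genes were called. Where the direction turned, no value passed the threshold: with the gene length trend removed, BMPR1A had -0.19, SMAD1 -0.025, SMAD6 -0.069 and ID1 0.048. BMPR1A also had -0.018 with no count filter, -0.0036 by DESeq2 and -0.10 with the replicate block, and SMAD1 -0.17 at equal depth. Leaving out single libraries gave BMPR1A -0.29 to 0.14 and SMAD1 -0.10 to 0.12.

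Of all genes, 19 passed in the main test and 311 with no count filter (1.27%). DESeq2 called 115 (1.06% of genes with an adjusted p), and 32 passed at equal depth and 35 with the length trend removed. Among the 10 genes the count of 0 became 2 with no count filter and 1 by DESeq2. Among the other pathway genes the count of 0 became 4 with no count filter, 1 by DESeq2 and 1 with the length trend removed. Leaving out a library gave 1 to 598 calls over all genes, 0 to 2 among the 10 and 0 to 6 among the other pathway genes. A lone LT4 library was assumed to vary like the controls. The counts of the 2 LT4 libraries, however, differed by a chi-square of 30 per degree of freedom, the largest of any pair. It was 5.53 to 8.60 between controls and 12.5 to 24.7 between an LT4 library and a control. Any control left out reduced the calls over all genes to 1. The cause of these shifts was not tested.

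The replicate block gave 427 calls over all genes (3.09%), 1 among the 10 (ID3, -0.68, adjusted p = 0.000359, edgeR) and 6 among the other pathway genes. The numbers are shared labels only: deviations of same-numbered libraries correlated at 0.207 and 0.212 across genes, but the deviations of 2 LT4 libraries mirror each other, so these are not separate values. Receptor and SMAD values rest on 13 to 48 counts in LT4 replicate 3, which limits what could be detected.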
